A study of Mus musculus with 6 samples.

Results

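The 53 genes described here encode the receptors for the fast transmitters of the brain: glutamate, GABA and glycine. They were taken from the deposited table of 23079 genes by gene symbol alone, in a choice made with earlier results of these data known. They comprise 4 AMPA, 5 kainate, 2 delta and 7 NMDA receptor subunits, 8 metabotropic glutamate receptors, 19 GABA-A subunits, 2 GABA-B subunits and 5 glycine receptor subunits. The remaining gene, Grid2ip, matches the symbol rule but encodes a scaffold that binds delta receptors, and it is no receptor subunit itself. Of the 53 genes, 50 had enough counts to be tested.

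Midbrain dopaminergic neurons were labelled in C57BL/6 mice of the Dat bacTRAP line, aged 4 months, in which promoter elements of the dopamine transporter gene drive a tagged ribosomal protein. Both groups received adeno-associated virus of serotype 1 carrying a short hairpin RNA together with EGFP; the hairpin was scrambled in the 3 control libraries and directed against Satb1, which encodes a nuclear protein that folds chromatin at AT-rich sites, in the 3 knockdown libraries. The labels count 3 mice and do not say which library came from which mouse, whether a library holds pigmented nigral tissue, ventral tegmental tissue or both, how long after injection tissue was taken, or whether tagged ribosomes were captured. P-values therefore measure only the spread between libraries, which may be technical.

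Glutamate excites dopamine neurons through AMPA and NMDA receptors, which are ion channels built from several subunits, and through metabotropic receptors, which signal through G proteins. GABA inhibits them through GABA-A receptors, chloride channels assembled from alpha, beta and usually a gamma subunit, and through GABA-B receptors, which are obligate pairs of Gabbr1 and Gabbr2 products and open potassium channels. The subunits present set a channel's kinetics, drug sensitivity and place on the cell, so the make-up of each class is given below beside its level.

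Levels are given in CPM, the counts of a gene relative to the library size after scaling by the trimmed mean of M-values (TMM), and are compared between genes only as CPM per kb of annotated exon. The libraries held between 147486754 and 170351145 counts, and 1 count was worth between 0.00557 and 0.00672 CPM. Satb1 stood at 351, 349.6 and 319.8 CPM in control libraries 1 to 3 and at 82.9, 166 and 61.2 CPM in knockdown libraries 1 to 3, so that knockdown library 2 kept the most target transcript. The dopamine neuron markers Th and Slc6a3 were abundant in every library, and of 17 such markers 9 fell and none rose. Their summed level was between 18577 and 21326 CPM in control and between 11834 and 14945 CPM in knockdown libraries. Of 12 oligodendrocyte markers, 10 rose, from a summed level between 429 and 495 CPM to one between 675 and 753 CPM, and no defining marker was at 0. Of 12 astrocyte markers 2 rose and 1 fell, with summed levels of 482 to 589.7 against 519 to 633 CPM and a median log2 fold change of 0.51. Of 12 microglia markers 2 rose and 2 fell; their sum, which follows the abundant ones, was 52.9 to 56.6 against 46.2 to 53.96 CPM, while their median log2 fold change was 1.07. Of 9 tested markers of GABA neurons 1 rose (207 to 253 against 227 to 329 CPM). Of 8 markers of oligodendrocyte precursors 2 rose (median 0.79), of 7 markers of glutamate neurons 1 fell, and none of 10 vessel markers passed. Over all genes tested, 12.6% were called lower and 8.48% higher at an adjusted p under 0.05. Beside these, 52.9% of the dopamine neuron markers were lower and 83.3% of the oligodendrocyte markers were higher. The 14.3% of glutamate neuron markers lower and 11.1% of GABA neuron markers higher were close to the shares over all genes. Whether these shifts contribute to any receptor difference was not tested, and in such tissue RNA fewer cells of a type and less RNA per cell cannot be told apart.

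In control libraries the receptor genes covered a wide range of levels per length. The highest was Gabbr1, the GABA-B subunit that binds GABA, at 65.7 ± 5.47 CPM per kb (SD, n = 3), followed by Glrb, the anchoring beta subunit of the glycine receptor, at 36.4 ± 2.09. Among the genes described, the beta subunit gene Gabrb2 (21.4 ± 1.12) and the obligatory NMDA subunit gene Grin1 (18.4 ± 3.55) came next, and their control libraries overlapped. Below them Gabbr2, Grik3, all 4 AMPA subunit genes, Gabra4, Gabra3 and Grik5 lay between 10.0 and 16.7 CPM per kb. The glycine receptor gene Glra2 followed at 6.13, and the metabotropic receptor gene Grm5 at 3.78. Absolute order depends on which gene models the authors counted, and no source used here names them. It is least certain for Grin2a and Grin2b, whose annotated exons span 14967 and 24794 bases.

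**Figure D1:**
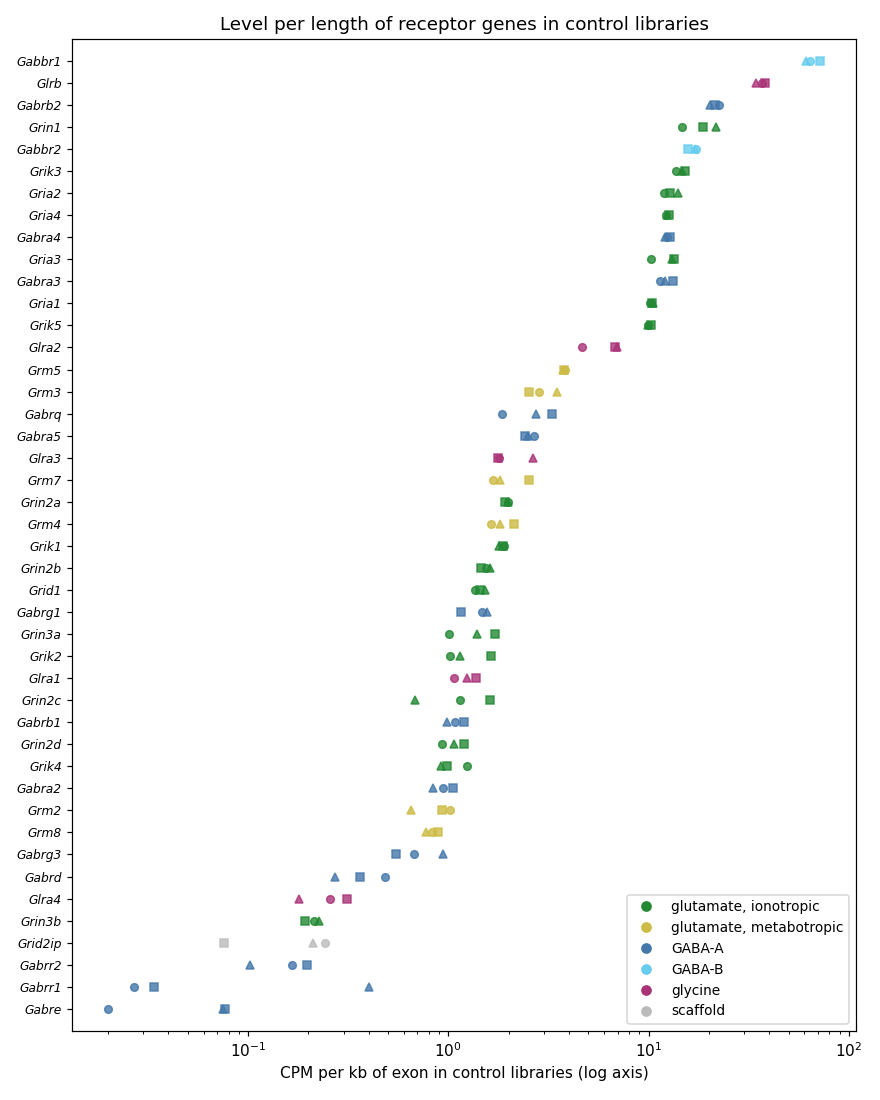
Each point is 1 control library (circle, square and triangle for libraries 1 to 3); the horizontal log axis gives CPM per kb of exon and the colours give the receptor family. Drawn are 44 genes with counts in all 3 control libraries, with Gabbr1 highest at 65.7 and Gabre lowest at 0.0573 CPM per kb on average.

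At the other end, 10 genes had a mean under 1 CPM over all libraries. Gabra6, Gabrp and Grm6 were not tested: Gabra6, the alpha subunit of cerebellar granule cells, had 0, 17 and 0 counts in control and 0, 2 and 11 in knockdown libraries. Gabrp had 1 count in all, and Grm6, the receptor of retinal bipolar cells, had 8 counts, all in control library 2. Gabrd, Gabre, Gabrr1, Gabrr2, Gabrr3, Glra4 and Grin3b were the tested genes under 1 CPM.

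Knockdown libraries were set against control libraries to see which receptor transcripts differ when Satb1 is reduced. Of 50 receptor genes tested, 7 fell and 2 rose at an adjusted p under 0.05 (edgeR quasi-likelihood test, adjusted over 16766 genes), and 41 did not pass. Among the genes that fell were Gabra4, Grin2b, Grin2a, Gabbr2 and Gria2, and those that rose were Gabra5 and Gabrr3. Gabrr3 passed the filter on low counts only through the knockdown libraries, where it is high, so its call is a description only. Where a mean of at least 1 CPM was required, 1 receptor gene was called higher, Gabra5. Among all genes tested 21.1% were called, 12.6% lower and 8.48% higher; among receptor genes it was 18.0%, 14.0% and 4.0%, so the receptor genes as a set were called about as often as genes in general. Their median log2 fold change was -0.02, against 0.01 over all genes tested. The groups did not overlap for 30% of the receptor genes, 10 lower and 5 higher, where they did not for 38.7% of all genes, 20.8% lower and 17.9% higher.

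How the calls split between directions depended on how libraries were scaled. Under total-count scaling the median log2 fold change of all genes moved from 0.01 to 0.18, the calls over all genes went from 1421 higher and 2115 lower to 2769 and 972, and the receptor calls became 3 higher (Gabra5, Gabrr3 and Grid1) and 2 lower, Gabra4 among them. The sign of an uncalled value close to 0 therefore depends on the scaling. Gabra4 was called lower in each of 12 alternative analyses, including every analysis with 1 library left out, and its largest adjusted p there was 0.0214. The calls of Grin2b, Grin2a, Gabbr2, Gria2, Gabra5 and Gabrr3 were each lost in at least 2 of the analyses tried on them.

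**Figure D2:**
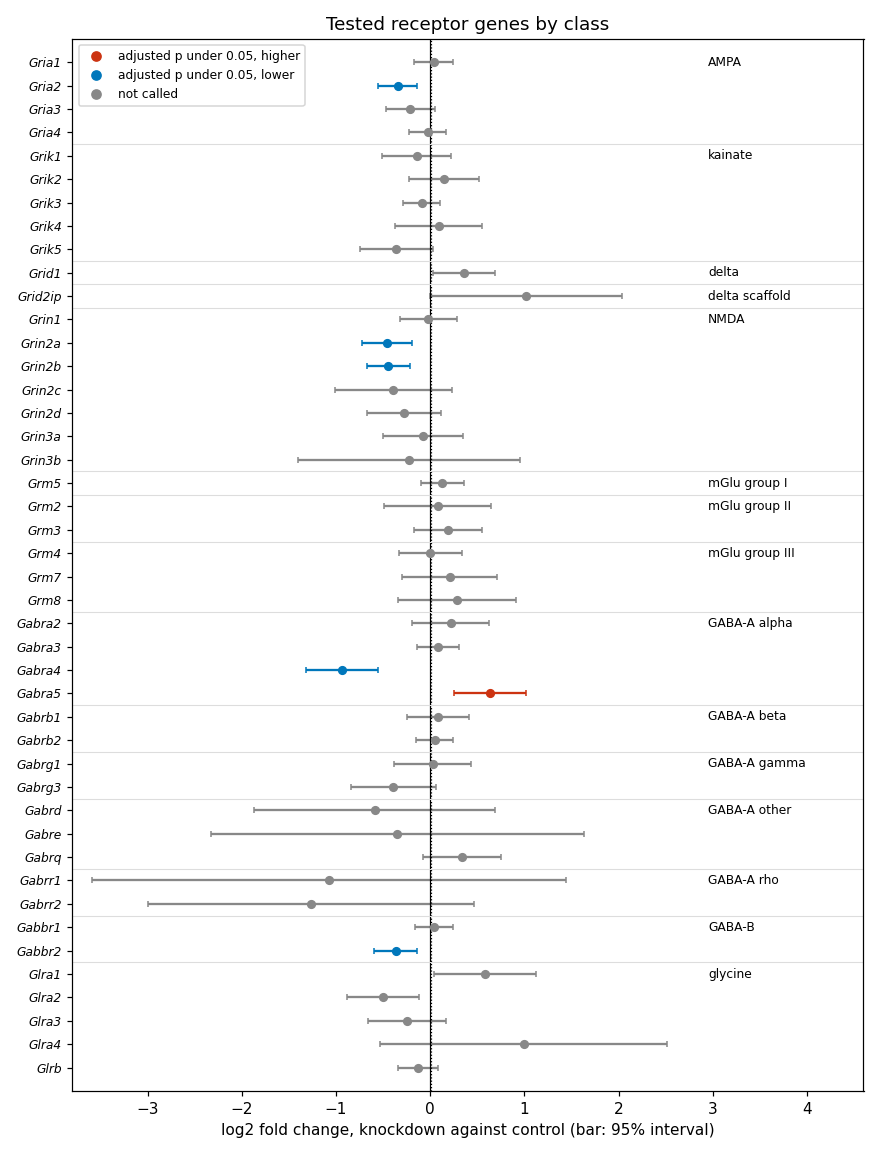
Points are the log2 fold change of knockdown against control for 44 tested receptor genes, bars are 95% intervals, the dotted line is the median of all genes tested, and rows are grouped by receptor class. Gabra4 (-0.94) lies farthest to the left among the called genes. Gabrr3, at 5.02, lies outside the axis and is not drawn.

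**Figure D3:**
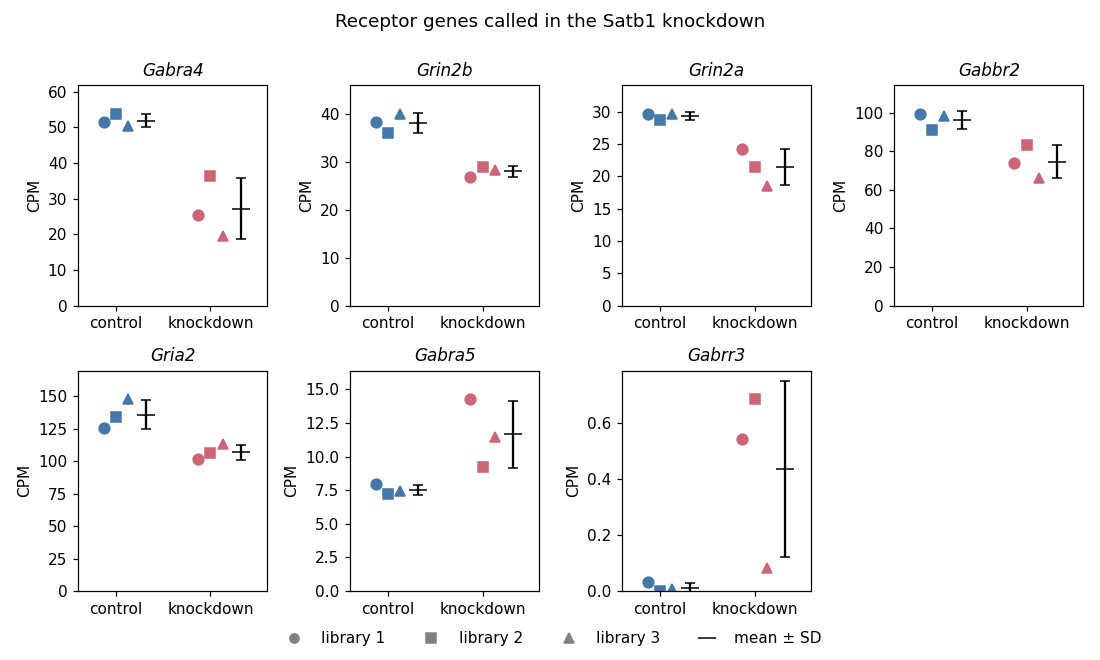
Each panel gives the level of 1 called gene in CPM for the 3 control and 3 knockdown libraries (circle, square and triangle for libraries 1 to 3), with the mean and SD in black. In all 7 panels the groups do not overlap, as they do not for 38.7% of all genes tested. The genes were drawn because they were called in these same libraries, so this separation adds no support to the calls. Gabrr3 passed the filter on low counts only through the knockdown libraries. For Gabra4, knockdown library 2, at 36.4 CPM, is the nearest of the knockdown libraries to the control level.

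The AMPA receptor subunits carry most fast excitation, and 1 of 4 fell. Gria2, whose edited product makes AMPA channels impermeable to calcium, was at 125.6, 134 and 148 CPM in control libraries 1 to 3 and at 102, 106 and 113 CPM in knockdown libraries 1 to 3. Every knockdown library was below every control library. The log2 fold change was -0.35 ± 0.10 (SE; edgeR adjusted p = 0.0232), and it missed the threshold under total-count scaling and when control library 2 or 3 or knockdown library 1 or 2 was left out. Gria1 (0.04, 95% interval -0.17 to 0.25), Gria3 (-0.21, -0.47 to 0.05) and Gria4 (-0.03, -0.22 to 0.17) did not pass.

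Shares within a class do not depend on how libraries are scaled. Gria2 made up 26.8, 26.0 and 28.1% of the AMPA subunit level per length in control libraries and 22.6, 22.7 and 24.9% in knockdown libraries. Gria4, with 27.3, 25.6 and 24.8% against 27.7, 28.0 and 28.2%, had a larger share in each knockdown library than in any control library. The share of Gria1 was also above the control range in each knockdown library (21.0 to 22.9% against 23.2 to 26.6%). Gria3 shares overlapped between the groups. The AMPA sum was 0.908 times the control mean, or 1.02 times with total-count scaling.

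No kainate or delta receptor subunit was called by edgeR with TMM scaling or by DESeq2. Grik3, the most abundant kainate subunit per length, was at 124, 137 and 132 CPM in control and 120.6, 121 and 127 CPM in knockdown libraries (log2 fold change -0.09, 95% interval -0.29 to 0.10; 0.08 with total-count scaling). Grik5, a subunit that forms channels only with another kainate subunit, was at 37.5, 38.6 and 37.2 CPM in control libraries and at 32.7, 36.1 and 19.5 CPM in knockdown libraries. Knockdown library 3 was well below the other libraries, and Grik5 did not pass (-0.36, adjusted p = 0.18). Grik1, Grik2 and Grik4 lay between -0.15 and 0.14. Grid1, a delta subunit that binds cerebellins at synapses, was at 7.77, 8.28 and 8.71 CPM in control and 11.5, 10.8 and 9.47 CPM in knockdown libraries. Its groups did not overlap, but the adjusted p was 0.116 (log2 fold change 0.36 ± 0.15, SE), and it was called higher only with total-count scaling among the alternatives run. The scaffold gene Grid2ip was at 1.14, 0.357 and 0.988 CPM in control and 1.34, 1.71 and 1.98 CPM in knockdown libraries, and it did not pass (1.02 ± 0.47 on the log2 scale; adjusted p = 0.151).

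NMDA receptors combine Grin1 with GluN2 subunits, which set channel kinetics and magnesium block. Grin2b was at 38.3, 36.1 and 40.04 CPM in control and 26.8, 28.9 and 28.3 CPM in knockdown libraries (log2 fold change -0.44 ± 0.10, SE; adjusted p = 0.0105). Grin2a was at 29.7, 28.7 and 29.7 CPM in control and 24.2, 21.5 and 18.6 CPM in knockdown libraries (-0.45 ± 0.12; adjusted p = 0.0196). Both fell, with no overlap between groups. Neither call held under total-count scaling. Grin2b also missed the threshold when knockdown library 1 was left out, and Grin2a when any 1 control library or knockdown library 3 was.

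Grin1 did not pass. It was at 64.2, 82.1 and 95.1 CPM in control and 69.8, 77.6 and 90.5 CPM in knockdown libraries, and its log2 fold change of -0.02 (95% interval -0.33 to 0.28) changed sign with total-count scaling (0.15). Grin1 had a wide spread within both groups. Its interval overlaps those of Grin2a (-0.72 to -0.19) and Grin2b (-0.67 to -0.22), and a difference between these genes was not tested. Grin2c (-0.39), Grin2d (-0.28), Grin3a (-0.08) and Grin3b (-0.23) did not pass. The summed level per length of the 4 GluN2 genes was between 5.34 and 6.18 CPM per kb in control and between 3.87 and 4.58 CPM per kb in knockdown libraries. Within that sum the shares overlapped: Grin2a held 34.5 ± 3.11% in control and 33.2 ± 2.48% in knockdown libraries, and Grin2b 27.1 ± 3.36% and 26.4 ± 2.82% (SD, n = 3 each). Exons of Grin1 and Grin2b overlap genes on the opposite strand, whose reads cannot be separated where strand was not used.

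Among metabotropic glutamate receptors, Grm5 belongs to group I, whose receptors couple to phospholipase C and release stored calcium. Grm5 was at 31.0, 30.7 and 30.6 CPM in control and 31.9, 35.9 and 33.0 CPM in knockdown libraries. Every knockdown library was above every control library, but Grm5 did not pass (0.13, 95% interval -0.10 to 0.35).

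The tested receptors of groups II and III, which couple to inhibitory G proteins and often sit on nerve endings, lay between 0.00 and 0.28. In group II, Grm3, which astrocytes also express, was at 8.70, 7.72 and 10.6 CPM in control and 10.97, 9.18 and 10.53 CPM in knockdown libraries, and Grm2 had a log2 fold change of 0.08. In group III, Grm7 was at 7.83, 11.8 and 8.40 CPM in control and 13.3, 7.04 and 11.95 CPM in knockdown libraries. Grm7 spread most in the knockdown, where library 2 was below every control library and the other two above. Grm4 had a log2 fold change of 0.00 and Grm8 of 0.28, the latter resting on knockdown library 2 at 6.21 CPM beside 2.90 and 3.29 CPM.

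The GABA-A alpha subunits, which with a neighbouring subunit form the GABA and benzodiazepine sites, moved in different directions. Gabra4, found mostly in receptors outside the synapse, was at 51.5, 53.8 and 50.4 CPM in control libraries and at 25.4, 36.4 and 19.6 CPM in knockdown libraries. Its log2 fold change was -0.94 ± 0.18 (SE; adjusted p = 0.00322), or 1.91-fold lower, and every knockdown library was below every control library. Gabra5, another mostly extrasynaptic subunit, was at 7.97, 7.21 and 7.41 CPM in control libraries and at 14.3, 9.25 and 11.4 CPM in knockdown libraries. It rose by 0.63 ± 0.18 on the log2 scale (SE; adjusted p = 0.0239), and it missed the threshold when control library 2 or 3, or knockdown library 1, was left out. Exons of Gabra5 overlap 148 bases of Gm9962 on the opposite strand. That gene was also counted, with 664, 788 and 525 counts in control and 1111, 815 and 909 in knockdown libraries, and did not pass (0.43, adjusted p = 0.160).

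Gabra3, known as a main alpha subunit of dopamine neurons, and Gabra2 did not pass. The log2 fold change of Gabra3 was 0.08 (95% interval -0.14 to 0.30), and that of Gabra2 was 0.22 (-0.19 to 0.62). In the alpha subunit level per length, Gabra4 held 28.6, 27.1 and 25.7% in control libraries and 13.8, 20.1 and 11.4% in knockdown libraries. Gabra3, at 26.4, 27.8 and 25.8% in control libraries, was below Gabra4 in library 1 and above it in the others, whereas in the knockdown Gabra3, at 30.9, 29.1 and 30.7%, was above Gabra4 in each library. Gabra5 went from between 5.11 and 6.22% to between 7.20 and 10.9%.

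**Figure D4:**
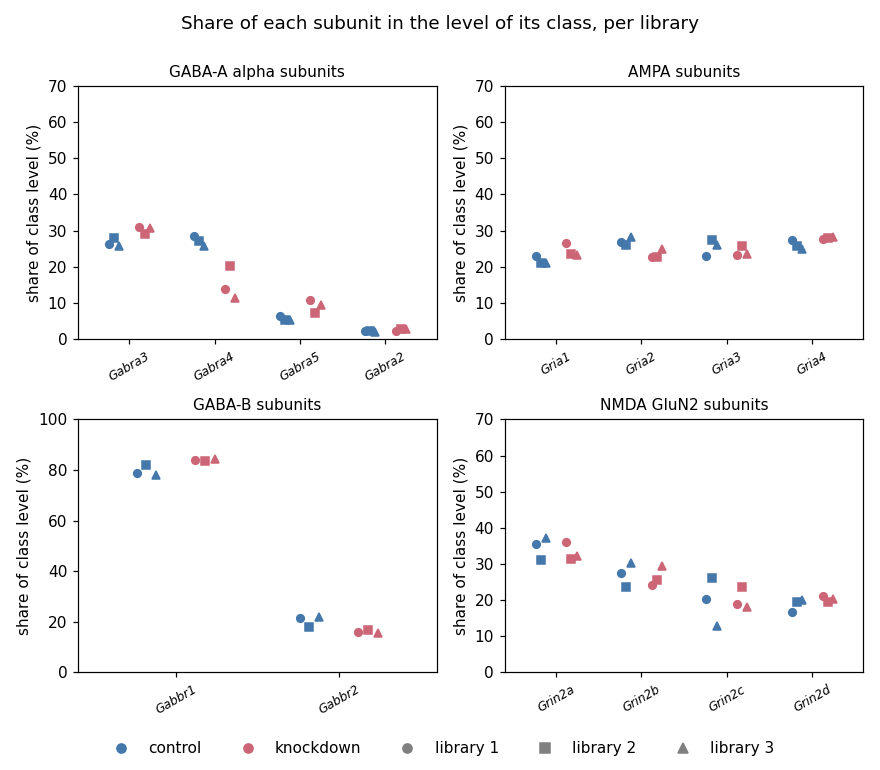
Each point is the share, in percent, of 1 subunit gene in the level per kb of its class in 1 library, with control in blue and knockdown in red and libraries 1 to 3 as circle, square and triangle. Gabra4, Gria2 and Gabbr2 have smaller shares in every knockdown library than in any control library, while the shares of GluN2 subunits overlap. The axis of GABA-B subunits ends at 100% and the others end at 70%.

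Of the beta subunits, which every common GABA-A receptor contains, Gabrb2 did not pass, with 92.2, 88.1 and 83.1 CPM against 92.0, 89.1 and 91.4 CPM (0.05, 95% interval -0.15 to 0.25). Gabrb1 was at 0.08 and did not pass.

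The gamma subunit genes Gabrg1 (0.03) and Gabrg3 (-0.39) did not pass. Gabrq, the theta subunit found in brainstem and midbrain nuclei, was the highest of the remaining subunits, with 9.88, 17.7 and 14.6 CPM in control and 20.3, 15.5 and 17.3 CPM in knockdown libraries (0.33, 95% interval -0.08 to 0.75). The delta subunit gene Gabrd is a known partner of alpha 4 outside the synapse. It was at 0.929, 0.695 and 0.524 CPM in control and 0.407, 0.358 and 0.66 CPM in knockdown libraries. Its level was under 1 CPM in every library, and its interval was wide (-0.59, -1.87 to 0.68). Summed over all 19 genes, the GABA-A level per length was 0.916 times the control mean, or 1.03 times with total-count scaling.

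The rho subunits, best known from the retina, were nearly absent. Gabrr3 had 5, 0 and 1 counts in control libraries and 97, 105 and 13 counts in knockdown libraries. It passed the filter on low counts only through the knockdown libraries, the group where it is high, so its call (edgeR adjusted p = 0.0152) is given as a description. The ratio of its 215 knockdown counts to its 6 control counts, scaled for library size, was 33.9 (exact binomial 95% interval 15.3 to 93.3, counting error only). Knockdown libraries 1 and 2 held most of the counts, the fitted log2 fold change lay between 4.47 and 6.73 over the alternatives, and the highest level was 0.683 CPM. The call was lost without control library 2 or 3 or knockdown library 1 or 2. Gabrr2 had 57, 64 and 32 counts in control and 19, 25 and 22 in knockdown libraries and did not pass (adjusted p = 0.295), and Gabrr1 was above 0.5 CPM in control library 3 alone.

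Most GABA-A subunit genes lie in clusters of neighbours, and the cluster on chromosome 5 holds a called gene beside uncalled ones. On chromosome 5 (GRCm38, the assembly also called mm10) the order is Gabrg1, Gabra2, Gabra4 and Gabrb1, and Gabra4 alone among them was called. Gabra4 lies on the minus strand from 71569749 to 71658308, and Gabrb1 runs the other way from 71658113 to 72149037, so that the annotated genes overlap by 196 bases at their starts. Gabrb1 was at 15.03, 16.5 and 13.7 CPM in control and 18.1, 12.9 and 16.95 CPM in knockdown libraries. Its log2 fold change of 0.08 had a 95% interval from -0.24 to 0.41, which excludes a decrease as large as that of Gabra4. On chromosome 7, Gabra5 spans 57407672 to 57510059, also on the minus strand. In the cluster of Gabre, Gabra3 and Gabrq on chromosome X, no gene was called by edgeR or DESeq2.

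**Figure D5:**
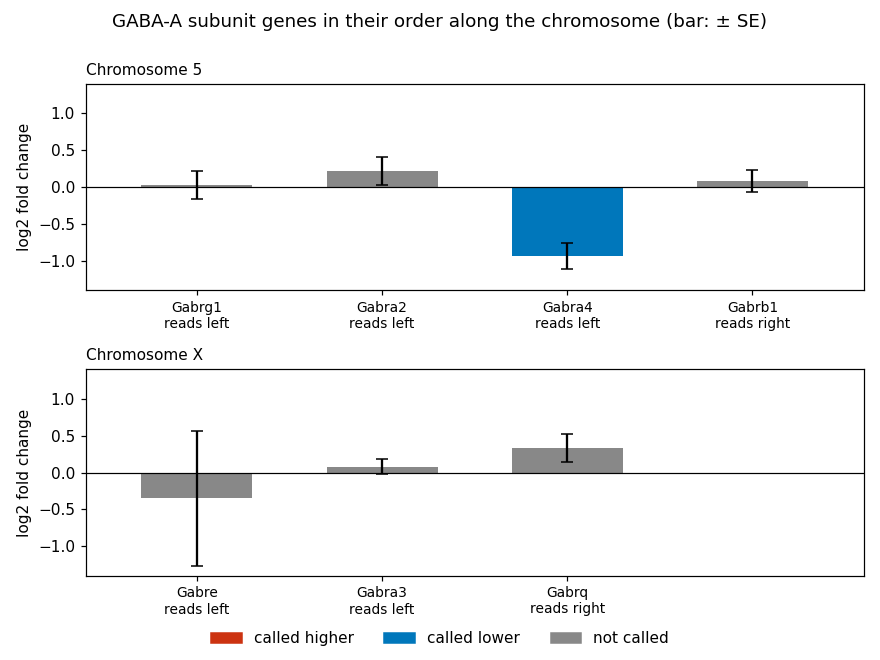
Bars give the log2 fold change of knockdown against control, with its SE, for GABA-A subunit genes in their order along chromosomes 5 and X; spacing is not to scale, and the direction of transcription is written under each gene. On chromosome 5 Gabra4 (-0.94) stands beside Gabrb1 (0.08).

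The sequences before the start sites of Gabra4 and Gabrb1 are shown because these neighbours differ in call, and that of Gabra5 because it is the alpha subunit gene that rose. They come from RefSeq (GRCm38.p6), as the longest stretch without annotated exon in the 250 bases before the start, 5′ to 3′ on the strand of the gene, with capitals marking the GC box GGGCGG on either strand. Gabra4 is chr5:71658364-71658558 on the minus strand, Gabrb1 is chr5:71699825-71699931 on the plus strand, before its inner start site, and Gabra5 is chr7:57510060-57510309 on the minus strand.
Gabra4: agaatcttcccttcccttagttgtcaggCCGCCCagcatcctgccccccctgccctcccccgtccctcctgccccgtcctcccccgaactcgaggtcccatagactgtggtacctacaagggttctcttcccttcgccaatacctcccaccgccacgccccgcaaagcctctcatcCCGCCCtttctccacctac
Gabrb1: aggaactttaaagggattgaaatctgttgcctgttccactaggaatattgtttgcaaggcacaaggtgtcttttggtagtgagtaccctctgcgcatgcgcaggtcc
Gabra5: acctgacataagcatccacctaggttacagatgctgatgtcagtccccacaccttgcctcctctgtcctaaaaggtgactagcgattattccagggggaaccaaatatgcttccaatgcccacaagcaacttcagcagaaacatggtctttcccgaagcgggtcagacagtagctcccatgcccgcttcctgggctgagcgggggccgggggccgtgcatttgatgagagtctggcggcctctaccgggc
The Gabra4 stretch holds 2 GC boxes and the others hold none. Among 32851 windows of 250 bases before RefSeq start sites, 32.7% hold at least 1. The Gabra4 stretch has 195 bases and the Gabrb1 stretch 107, so they have less room for a match than a window. Neither TATAAA, found in 12.4% of the windows, nor TGACG, found in 17.8%, is in any of the 3 stretches. A and T make up 36.4% of the Gabra4 stretch, 53.3% of the Gabrb1 stretch and 43.6% of the Gabra5 stretch, where the median window has 47.6%. In the full windows of 250 bases the share is 38.8% for Gabra4 and 49.2% for this Gabrb1 start. The stretch before the outer start site of Gabrb1, chr5:71657671-71657723, is not printed. It has 53 bases, of which A and T make up 32.1%, so the 2 Gabrb1 stretches lie on either side of the Gabra4 value. These matches describe the letters only.

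Of the GABA-B partners, Gabbr2 was called lower and Gabbr1 was not called. Gabbr1 was at 423, 474 and 405 CPM in control and 446, 483 and 409.5 CPM in knockdown libraries and did not pass (0.04, 95% interval -0.17 to 0.25). Gabbr2, which carries the signal to the G protein, was at 99.3, 90.8 and 98.3 CPM in control and 74.1, 83.1 and 66.3 CPM in knockdown libraries. Gabbr2 fell by 0.37 ± 0.11 on the log2 scale (SE; adjusted p = 0.0257), with no overlap between groups. Its 95% interval (-0.596 to -0.141) overlaps that of Gabbr1 at the edge, and a difference between these genes was not tested. Gabbr2 made up 21.2, 18.0 and 21.8% of the level per length of the pair in control libraries and 16.0, 16.5 and 15.7% in knockdown libraries. Its call did not hold under total-count scaling, nor when any 1 control library, or knockdown library 1 or 3, was left out.

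No glycine receptor subunit was called by edgeR with all libraries. Glrb, which binds the scaffold gephyrin, was at 117, 122 and 109 CPM in control and 110.1, 112 and 96.0 CPM in knockdown libraries (-0.13, 95% interval -0.34 to 0.08; 0.04 with total-count scaling). Glra2, the alpha subunit of the immature brain and the most abundant alpha here, was at 14.6, 21.5 and 21.8 CPM in control and 16.1, 13.6 and 11.2 CPM in knockdown libraries. Control library 1 was below knockdown library 1, and Glra2 did not pass (-0.50 ± 0.18, SE; adjusted p = 0.0645); DESeq2 called it lower, and edgeR did without control library 1. Glra1, the adult alpha subunit of spinal cord and brainstem, was at 2.57, 3.34 and 2.98 CPM in control and 5.30, 4.67 and 3.298 CPM in knockdown libraries (0.58, adjusted p = 0.124). Among the 4 alpha subunits Glra2 held between 59.8 and 66.3% of the level per length in control and between 46.6 and 57.6% in knockdown libraries, and Glra1 between 11.3 and 13.7% against 19.4 and 24.7%. Glra3 (-0.25) and Glra4 (0.99) had overlapping groups.

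The proteins that carry, anchor and trim these receptors were read from lists. Of 40 tested partners of glutamate receptors, 11 fell (27.5%) and 1 rose, with a median log2 fold change of -0.19, beside 12.6% lower and a median of 0.01 over all genes. Homer2, which ties group I metabotropic receptors to the postsynaptic scaffold, was at 125.0, 117 and 108 CPM in control and 50.7, 78.5 and 51.6 CPM in knockdown libraries (-0.96 ± 0.15, SE; adjusted p = 0.00125). Shank2, a scaffold that binds Homer proteins, fell by 0.78 ± 0.15. The neuronal pentraxin receptor gene Nptxr fell by 0.70 ± 0.12, while Nptx1, a secreted pentraxin that clusters AMPA receptors, rose, from 43.4, 56.8 and 54.2 CPM to 88.9, 77.7 and 105.5 CPM (0.82 ± 0.13; adjusted p = 0.00144). These 4 kept their calls in each of 12 alternative analyses. With total-count scaling the list had 4 members lower and 3 higher, and between 5 and 7 were lower without control library 1 or 2 or knockdown library 1 or 3.

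Of 24 partners of GABA and glycine receptors, 3 fell (12.5%) and 1 rose, which is close to the background. Gabarapl1, which takes part in receptor traffic and autophagy, fell by 0.47 ± 0.08 (adjusted p = 0.00234), and Clptm1, which holds GABA-A receptors back in the endoplasmic reticulum, by 0.38 ± 0.10. Iqsec3, a gephyrin-binding exchange factor, rose by 0.33 ± 0.09. The call of Clptm1 was lost in 5 of 12 alternatives, namely total-count scaling and leaving out control library 2 or 3 or knockdown library 1 or 3. That of Iqsec3 was lost when control library 1 or 3 was left out. Gephyrin itself, Gphn, did not pass (0.01 ± 0.11). With total-count scaling 1 was lower and 3 were higher, and with the replicate number as a block 6 were lower.

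Of 28 genes that make, pack, take up or break down the transmitters, 4 fell (14.3%) and 2 rose (7.14%), close to the 12.6% and 8.48% of all genes. Among those that fell were Slc38a1, a glutamine transporter, from 473 ± 35.2 to 289 ± 35.96 CPM (SD, n = 3 each; adjusted p = 0.000791), the GABA transaminase gene Abat (-0.52 ± 0.10, SE) and the glutamate transporter gene Slc1a2 (-0.47 ± 0.10), which is also an astrocyte marker. Those that rose were Aldh5a1 (0.46) and Slc1a6 (0.59), both chosen for naming after their values were seen. With total-count scaling the genes that rose were 7, and with 1 library left out they were between 0 and 2.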

How the data were processed

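Total RNA was sequenced from 3 control and 3 Satb1 knockdown libraries, grouped and numbered by their titles. The titles say siRNA, the treatment text shRNA. The values are unnormalised counts, 1 whole number for each gene and library, as deposited by the authors. TopHat2 2.0.8 and the build mm10 are named per the submitters' processing notes. The counting tool, gene models, strand and treatment of reads with several alignments were not given in the sources used here. Groups were compared with edgeR 4.0.16 (R 4.3.3; glmQLFit and glmQLFTest) after TMM scaling, filterByExpr (minimum count 10, minimum total 15) and Benjamini-Hochberg adjustment over 16766 genes, two-sided, threshold 0.05. Standard errors and 95% intervals were derived from the F statistic. The script was tested on simulated data, where 100 genes with a mean above 1 CPM were changed at each size. It recovered 56% of 1.5-fold changes and 88% of 2-fold changes, with 9 false calls. The simulated libraries were independent, and only these genes changed, as many up as down. In the data 1421 genes were called higher and 2115 lower, and libraries may share mice. The simulated rates therefore check the script and do not measure sensitivity or false calls in these data. Replicate libraries differed by far more than sampling noise (chi-square per gene between 58.5 and 156).

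All 53 genes matched GENCODE M21 (GRCm38), whose protein-coding exons gave lengths and positions. No receptor gene shared identical counts with another gene, and exons of 16 overlap a gene on the opposite strand. RefSeq promoter windows matched 37 of the 53. The genes described with all library values were the called receptor genes, the highest of each class per length, the 5 uncalled with the smallest p, and the largest uncalled changes, and at most 4 called genes per partner list. Other genes given with all library values were chosen after their values were seen. Some of these genes are not reported here, though they stay in every count and fit. The members and lists were chosen with earlier results of these data known.

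Alternatives were relative log expression or total-count scaling, DESeq2 1.42.0, no low-count filter (at least 1 count in all) or a mean of at least 1 CPM, the replicate number as a block, and leaving out each library.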

Additional observations from a re-analysis of the deposited data

How the results depend on the processing

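Gabra4 kept direction and call in all 12 alternatives. For the receptor genes called, 7 lower and 2 higher, the counts were 2 lower with total-count scaling and 1 higher with a mean of at least 1 CPM, where Gabrr3 was no longer tested. Leaving out 1 library gave between 3 and 6 lower and between 0 and 2 higher. With edgeR, the higher calls numbered 0 when control library 2 or 3 or knockdown library 1 was left out, where Gabra5 and Gabrr3 had adjusted p up to 0.122 and 0.0572. The cause was not tested. Over all genes, total-count scaling gave 2769 higher and 972 lower, and leaving out 1 library gave between 804 and 1356 higher and between 1132 and 2054 lower.

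With total-count scaling, glutamate receptor partners were 3 higher and 4 lower, GABA and glycine receptor partners 3 higher and 1 lower, and 7 synthesis and transport genes were higher. DESeq2, and a mean of at least 1 CPM, each gave 4 of the last list higher. Leaving out 1 library gave between 5 and 11 glutamate receptor partners lower and 1 higher, between 2 and 3 GABA and glycine receptor partners lower and between 0 and 1 higher, and between 4 and 5 synthesis and transport genes lower and between 0 and 2 higher. Class sums, as knockdown over control, moved with total-count scaling to 1.02 (AMPA), 1.003 (kainate), 1.03 (GABA-A), 1.097 (GABA-B) and 1.016 (glycine).

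Alternatives were computed gene by gene only for those chosen by the naming rule; among them the log2 fold changes that changed sign were all uncalled. They were, with total-count scaling Grin1 (0.15), Glrb (0.0371) and Grik3 (0.0766), where the median of all genes moved from 0.01 to 0.18 and other uncalled genes near 0 can change sign too; with a mean of at least 1 CPM Grin1 (0.0247); and with 1 library left out Gabbr1 (-0.0184 to 0.113) and Grin1 (-0.162 to 0.115).

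Same-numbered libraries correlated weakly in their deviations from the group means, at 0.0564, 0.0127 and 0.108. Knockdown libraries 1 and 3 each correlated best with the control library of their own number, and knockdown library 2 with control library 1. These values do not settle whether the libraries pair. With the replicate block the receptor calls were 7 lower and 2 higher, and 6 GABA and glycine receptor partners were lower. The longest transcript in place of all exons, tried after seeing the data, gave Gabbr2 16.9% and 13.2% of its class, and Gria2 25.4% and 22.0%, in control and knockdown. Genes under 1 CPM have wide intervals at this depth.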
